A study of Mus musculus with 4 samples.

Results

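The 10 genes described here encode regulators of transcription in male meiosis: Mybl1, Tcfl5, Ovol1, Brdt, Rfx2, Crem, Sox30, Taf4b, Taf7l and Pou5f2. They were taken by symbol from the 32285 genes of the count matrix, and all 10 were found. Mouse testis cells were sequenced as single cells by the 10x Genomics v3.1 3' method in 4 libraries, 1 for each of CTRL and Znhit1 knockout (KO) at postnatal days 16 and 35 (P16 and P35). ZNHIT1 is a subunit of a chromatin remodeller that deposits the histone variant H2A.Z. Only the counts of the P35 KO library were analysed here, so every value is from knockout testis and no value compares genotypes or ages. The deletion allele, the Cre driver and the number of animals per library are not given in the sources used here.

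Meiotic prophase runs through leptotene, zygotene and the long pachytene stage, in which homologous chromosomes are fully paired. Spermatogonia and the first prophase cells use a mitotic and early meiotic set of genes, and transcription then rises broadly in pachytene, when germ cells begin to make RNA for later sperm formation. The regulators of this switch include sequence-specific factors such as A-MYB (the product of Mybl1), readers of acetylated histones such as BRDT, and germ-cell versions of subunits of the general factor TFIID, such as TAF4B and TAF7L. The X and Y chromosomes are silenced in pachytene, which bears on Taf7l because it is X-linked.

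The library held 15306 barcodes with 72459160 unique molecular identifiers (UMIs), a median of 3408.5 per barcode. Barcode sequences shared between any pair of the 4 libraries numbered 45 to 81. After filtering and removal of doublets, 7865 cells with a median of 4612 UMIs were clustered without the 10 genes. Germ-like cells numbered 4386 (55.8%) in 9 clusters, and somatic-like cells 2595 (33.0%). A further 884 cells (11.2%) in 4 clusters took no name. In order of pseudotime, which ranks cells by how far their expression lies from that of the earliest cells, germ clusters 1 to 4 were spermatogonium-like (1619 cells), 5 to 7 early-prophase-like (2315 cells) and 8 and 9 pachytene-like (292 and 160 cells). No cluster was late-spermatocyte-like or spermatid-like. Median depth per cluster ran from 3715.5 to 20436.5 UMIs. Clusters 4 and 6 were led by haemoglobin genes, at 516 and 527 CPM against 3.18 to 12.2 CPM in the other germ clusters. CPM give the share of all UMIs of a set of cells that a gene took, scaled to a fixed total. The part of haemoglobin RNA in the results was not tested beyond leaving cluster 4 out. Intervals are exact Poisson 95% intervals for levels and exact conditional binomial 95% intervals for ratios. They cover counting error within 1 library only, and no test across samples was possible.

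The 250 bases upstream of the RefSeq start (GRCm38.p6) are shown for 5 members that reached high levels after Mybl1. They are printed so that the letters TAACNG or CAACNG, recognised by MYB-family proteins, can be seen. Capitals mark every match on either strand.
Tcfl5 promoter, chr2:180642692-180642941, minus strand: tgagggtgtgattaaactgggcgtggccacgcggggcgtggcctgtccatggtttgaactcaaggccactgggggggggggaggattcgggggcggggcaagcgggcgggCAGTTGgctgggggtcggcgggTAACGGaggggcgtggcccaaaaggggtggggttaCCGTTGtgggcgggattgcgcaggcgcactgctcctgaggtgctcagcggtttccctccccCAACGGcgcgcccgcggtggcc
Rfx2 promoter, chr17:56831009-56831258, minus strand: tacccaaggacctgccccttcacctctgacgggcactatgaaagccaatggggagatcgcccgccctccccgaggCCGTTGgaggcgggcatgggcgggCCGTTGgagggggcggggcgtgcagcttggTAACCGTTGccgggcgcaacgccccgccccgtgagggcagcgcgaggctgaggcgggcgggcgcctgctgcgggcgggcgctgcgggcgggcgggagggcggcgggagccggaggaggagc
Sox30 promoter, chr11:45980060-45980309, plus strand: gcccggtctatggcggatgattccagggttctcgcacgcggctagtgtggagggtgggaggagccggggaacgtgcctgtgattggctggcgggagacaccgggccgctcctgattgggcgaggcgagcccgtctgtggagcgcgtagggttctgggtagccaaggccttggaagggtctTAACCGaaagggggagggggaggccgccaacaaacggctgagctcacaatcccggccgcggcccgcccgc
Pou5f2 promoter, chr13:78024652-78024901, plus strand: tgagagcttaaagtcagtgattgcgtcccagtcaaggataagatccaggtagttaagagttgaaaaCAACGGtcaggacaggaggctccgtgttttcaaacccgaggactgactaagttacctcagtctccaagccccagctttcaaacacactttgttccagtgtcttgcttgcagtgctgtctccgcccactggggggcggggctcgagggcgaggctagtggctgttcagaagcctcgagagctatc
Brdt promoter, chr5:107330944-107331193, plus strand: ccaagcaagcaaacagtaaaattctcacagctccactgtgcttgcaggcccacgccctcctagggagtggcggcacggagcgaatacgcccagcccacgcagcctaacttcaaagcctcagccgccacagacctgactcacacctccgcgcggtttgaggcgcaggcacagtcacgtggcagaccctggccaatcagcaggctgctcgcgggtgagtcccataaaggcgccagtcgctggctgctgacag
Tcfl5 and Rfx2 each held 4 matches, Sox30 and Pou5f2 held 1 and Brdt held 0. In Rfx2, 2 of the matches overlap. Of the 6 members with a promoter entry, 5 held at least 1 match, against 43.1% of 32817 promoters of the same length. The sixth entry was Taf7l, with 1 match. Other letters were searched for as well. GTTNCC, an RFX half-site, was held by 5 of the 6, against 39.4% of promoters. CACGTG and CACGCG were each held by 2, against 6.02% and 7.61%. TGACG was held by 1, against 17.7%, and TGACGTCA by 0, against 1.55%. At least 4 matches to the MYB letters were held by 2 of the 6, against 0.603% of all promoters. That cut equals the count seen in Tcfl5 and Rfx2, and no other cut or set of letters was counted this way. The contrast is therefore a description only. The promoters of Tcfl5, Rfx2 and Sox30 held 22, 30 and 23 CpG, above the upper quartile of 16 over all promoters. Brdt held 16 and Pou5f2 held 9, with a median of 6 and a lower quartile of 2 over all promoters. A match is a description of the letters and not a measured binding site. All 10 members are annotated as protein coding, and their coordinates below are in mm10.

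The members reached high levels one after another along the ordered germ cells. The 4386 germ-like cells were cut into 20 bins of 219 or 220 cells, and a member's position was the first bin at or above 50% of its highest bin. Taf7l reached it in bin 6, in which 70.3% of cells were from the spermatogonium-like cluster 4. Taf4b reached it in bin 8, in which 57.1% of cells were from cluster 5, the first early-prophase-like one. Mybl1 followed in bin 11 and Crem in bin 13. Brdt and Sox30 reached it in bin 16, in which 78.5% of cells were from cluster 7, and Tcfl5 and Rfx2 in bin 17. Pou5f2 came last, in bin 20. Ovol1, with 118 UMIs in all germ-like cells and no bin above 8.86 CPM, gave no order that could be read.

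**Figure D1:**
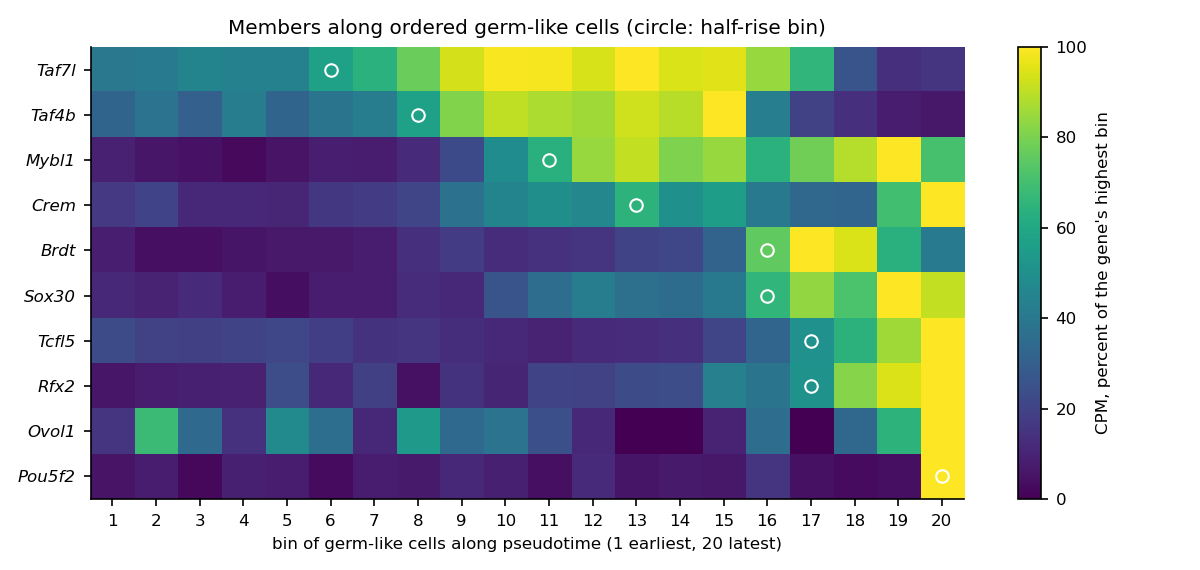
Level of each gene in 20 bins of germ-like cells along pseudotime (horizontal, 1 earliest), as percent of the gene's highest bin (colour). The circle marks the first bin at or above 50%, which moves from bin 6 for Taf7l to bin 20 for Pou5f2. Ovol1 has no circle because its counts were too few.

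Neighbours in this order were not all separable. Under 5 other settings (10 or 40 bins, thinned cells, equal weight per cell, doublets kept), Taf7l lay between 25% and 28.8% of the ordered cells and Taf4b between 35% and 37.5%. Mybl1 lay between 47.5% and 55.0% and Crem between 46.3% and 62.5%, so the order of these genes was not settled. Brdt (75% to 77.5%) and Sox30 (72.5% to 77.5%) overlapped, as did Tcfl5 (82.5% to 85%) and Rfx2 (82.5% to 87.5%). These groups were apart from each other under those settings. Ordering the cells by the first principal component instead put Taf7l, Taf4b, Mybl1 and Crem all in the first bin, while Brdt and Sox30 (72.5%), Tcfl5 and Rfx2 (87.5%) and Pou5f2 (97.5%) stayed in sequence. At 25% of the highest bin in place of 50%, Taf7l and Taf4b were already past that height in bin 1, at 40.1% and 32.2%. Crem passed it in bin 9, Sox30 together with Mybl1 (47.5%) and Rfx2 together with Brdt (72.5%). These orders therefore depend on the height chosen.

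Taf7l and Taf4b, the germ-cell paralogues of the TFIID subunits TAF7 and TAF4, were highest in early-prophase-like cells. Taf4b had fallen in cluster 7, where Brdt was highest, and Taf7l fell in cluster 8. Taf7l stood at 324, 329, 389.7 and 483 CPM in germ clusters 1 to 4, at 809, 722 and 449 CPM in clusters 5 to 7, and at 48.9 and 181 CPM in clusters 8 and 9. Its level in somatic-like cells was 31.2 CPM. Taf7l lies at chrX:134460118-134476490 on the minus strand and Taf4b at chr18:14783245-14900359 on the plus strand. Taf4b stood at 116, 136, 136 and 148 CPM in clusters 1 to 4, at 328, 319 and 79.6 CPM in clusters 5 to 7, and at 32.6 and 18.2 CPM in clusters 8 and 9. In cluster 9 its interval (14.2 to 23.1 CPM) included the somatic-like level of 19.3 CPM. Between the early-prophase-like and pachytene-like classes, Taf4b was 9.31-fold lower (8.04 to 10.8) and Taf7l 5.64-fold lower (5.26 to 6.06).

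Fewer cells held their RNA as well. After thinning each cell to 2000 UMIs, a Taf7l UMI was found in 54.6% of spermatogonium-like, 70.8% of early-prophase-like, 17.6% of pachytene-like and 5.39% of somatic-like cells (85.5%, 88.3%, 42.9% and 11.9% without thinning). For Taf4b these shares were 21.5%, 36.8%, 4.24% and 2.89% (54.2%, 61.0%, 30.5% and 8.63% without thinning).

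The falls of the TFIID paralogues came at different steps. Taf4b was 4.0-fold lower (3.55 to 4.52) in cluster 7 than in cluster 6, where Taf7l was 1.61-fold lower (1.52 to 1.70). Taf7l was 9.18-fold lower (7.88 to 10.7) in cluster 8 than in cluster 7, where Taf4b was 2.44-fold lower (1.98 to 3.03). In the bins, Taf4b was last at or above 50% of its highest level in bin 15 and Taf7l in bin 17. The Taf7l step came with the fall of X-linked RNA, which gave 2.52% of UMIs in cluster 6, 1.87% in cluster 7 and 0.504% in cluster 8. Taf7l also fell as a share of X-linked UMIs, from 2.41% in cluster 7 to 0.971% in cluster 8. How much of the Taf7l step comes from the chromosome was not tested. Taf1, the X-linked gene of the largest TFIID subunit, went from 130.3 CPM in early-prophase-like to 10.8 CPM in pachytene-like cells, 12.1-fold lower (9.68 to 15.3).

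**Figure D2:**
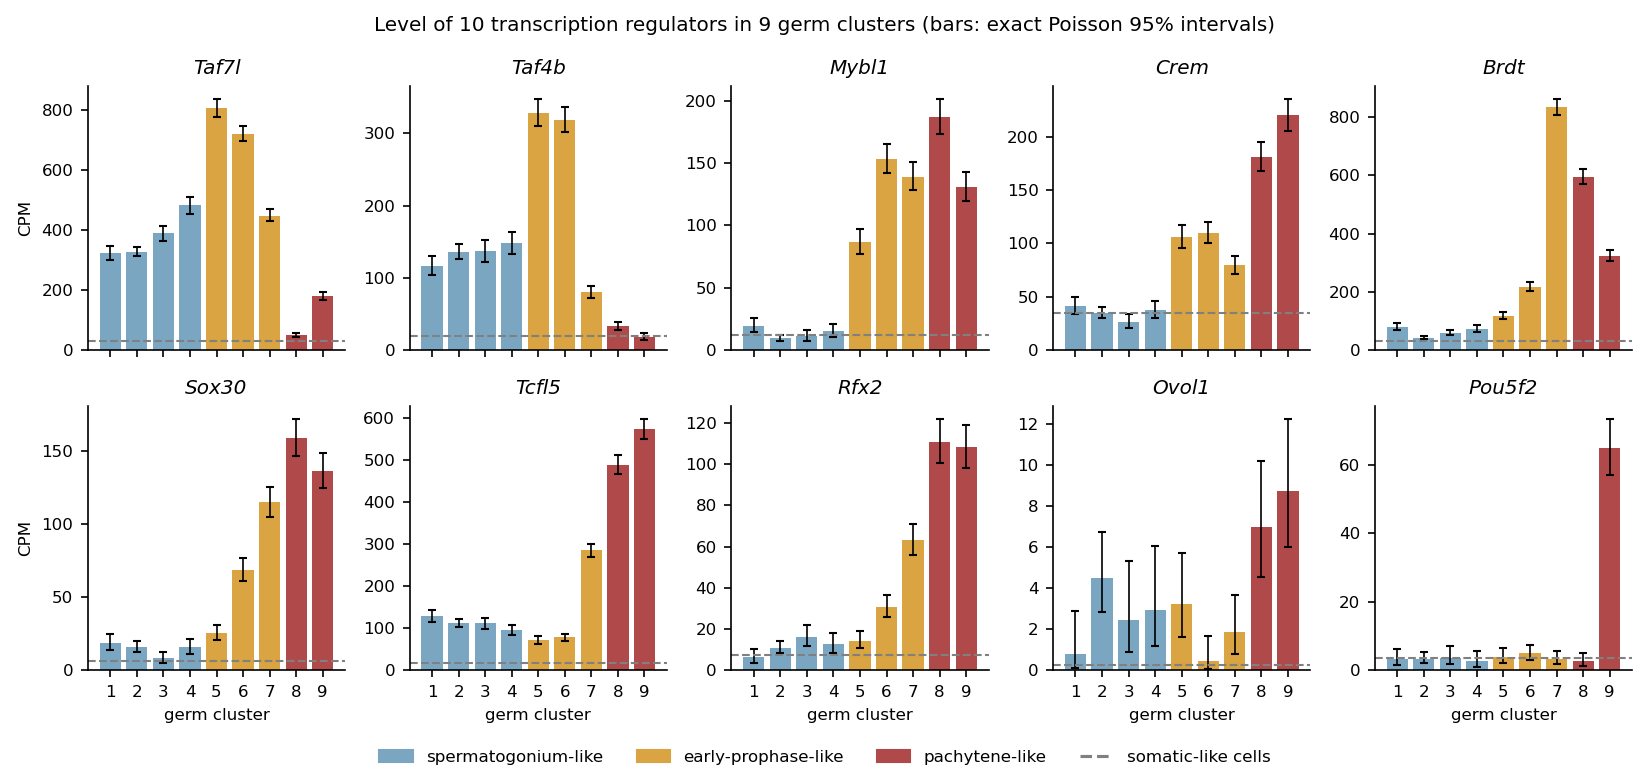
CPM of the 10 genes (vertical, own scale for each gene) in germ clusters 1 to 9 (horizontal), with exact Poisson 95% intervals. Dashed lines give the level in somatic-like cells. Taf7l and Taf4b are highest in cluster 5, Brdt in cluster 7, Mybl1, Sox30 and Rfx2 in cluster 8, and Crem, Tcfl5, Ovol1 and Pou5f2 in cluster 9.

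Mybl1 encodes A-MYB, the activator of pachytene piRNA loci and of many meiotic genes, and lies at chr1:9667415-9700209 on the minus strand. It stood at 19.5, 9.35, 11.3 and 15.1 CPM in clusters 1 to 4, near the 12.1 CPM of somatic-like cells. It stood at 86.5, 153 and 139 CPM in clusters 5 to 7 and at 187 and 130.5 CPM in clusters 8 and 9. Its largest step was from cluster 4 to cluster 5, at 5.73-fold (4.05 to 8.34). Cells with a Mybl1 UMI, after thinning each cell to 2000 UMIs, made up 2.08% of spermatogonium-like, 20.5% of early-prophase-like and 28.8% of pachytene-like cells, against 1.94% of somatic-like cells. Without thinning these shares were 7.78%, 42.8%, 81.9% and 5.63%.

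Tcfl5, a basic helix-loop-helix factor of spermatocytes, was already present in spermatogonium-like cells and passed through a minimum. It stood at 128, 112, 111 and 95.2 CPM in clusters 1 to 4, then at 71.1, 77.9 and 285 CPM in clusters 5 to 7, and at 489 and 574 CPM in clusters 8 and 9. The somatic-like level was 16.6 CPM. The gene lies at chr2:180621956-180642708 on the minus strand. Its lowest bin was bin 11 at 53.9 CPM, the same bin in which Mybl1 passed 50% of its highest level. After thinning to 2000 UMIs, 19.2% of spermatogonium-like, 20.2% of early-prophase-like, 58.9% of pachytene-like and 2.98% of somatic-like cells held a Tcfl5 UMI (51.9%, 41.5%, 97.6% and 7.63% without thinning). From cluster 6 to cluster 7 it was 3.66-fold higher (3.24 to 4.14). Over the 20 bins the levels of Tcfl5 and Taf4b had a Pearson r of -0.93, a description over bins that share 1 library and differ in depth (median UMIs 3759 to 18013). Other pairs had an r of similar size, such as Taf4b with Taf7l (0.94), Mybl1 with Crem (0.91) and Tcfl5 with Taf7l (-0.83).

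Ovol1, a zinc-finger repressor needed for progress through pachytene, was the least covered member and lies at chr19:5549136-5560646 on the minus strand. It had 2, 23, 6 and 7 UMIs in clusters 1 to 4, 11, 2 and 8 UMIs in clusters 5 to 7, and 26 and 33 UMIs in clusters 8 and 9. These gave 6.95 CPM (4.54 to 10.2) in cluster 8 and 8.72 CPM (6.0 to 12.2) in cluster 9. Cluster 8 was 3.73-fold higher than cluster 7 (1.64 to 9.54). Of the known OVOL1-repressed genes listed, Id2 went from 3.98 to 3.06 CPM between early-prophase-like and pachytene-like cells, a ratio of 0.768 whose interval spans 1 (0.446 to 1.29), and Myc had too few UMIs for a ratio.

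Brdt encodes the testis member of the BET bromodomain proteins, which bind acetylated histones, and lies at chr5:107331159-107387058 on the plus strand. It stood at 79.6, 42.3, 59.5 and 73.4 CPM in clusters 1 to 4, at 118, 218 and 837 CPM in clusters 5 to 7, and at 596 and 325 CPM in clusters 8 and 9. The somatic-like level was 32.0 CPM. The step from cluster 6 to cluster 7 was 3.84-fold (3.57 to 4.13). After thinning, 10.9% of spermatogonium-like, 39.7% of early-prophase-like, 60.5% of pachytene-like and 4.83% of somatic-like cells held a Brdt UMI (31.5%, 58.4%, 96.7% and 13.4% without thinning). Its peak level was in cluster 7, before the clusters named pachytene-like, with 1.41-fold (1.33 to 1.48) and 1.83-fold (1.71 to 1.97) lower levels at the following steps. Between whole classes this is hidden, since early-prophase-like and pachytene-like cells stood at 409.7 and 459 CPM, a ratio of 1.12 (1.07 to 1.17). The log2 ratio was 0.17, against 0.81 with 2000 variable genes, where the pachytene-like class held 732 cells in place of 452. With at most 20% mitochondrial UMIs it was -0.12, so the ratio depends on the class border.

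Sox30 and Rfx2 are needed for spermatid development, Sox30 as an HMG-box factor and Rfx2 as a winged-helix factor of cilium and flagellum genes. Sox30 stood at 18.7, 15.8, 8.09 and 15.5 CPM in clusters 1 to 4, at 25.3, 68.6 and 115 CPM in clusters 5 to 7, and at 159 and 136 CPM in clusters 8 and 9. Rfx2 stood at 6.37, 10.9, 16.2 and 12.6 CPM in clusters 1 to 4, at 14.2, 30.8 and 63.1 CPM in clusters 5 to 7, and at 111 and 108 CPM in clusters 8 and 9. Both genes rose over several steps and neither moved by 2-fold between clusters 8 and 9. Rfx2 in somatic-like cells stood at 7.50 CPM and Sox30 at 6.03 CPM. Sox30 lies at chr11:45980310-46017994 on the plus strand and Rfx2 at chr17:56775897-56831013 on the minus strand.

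Crem, a factor that binds cyclic AMP response elements and switches from repressor to activator isoforms in germ cells, rose in separate steps. It stood at 41.4, 35.1, 26.3 and 37.7 CPM in clusters 1 to 4, near its somatic-like level of 34.6 CPM. It stood at 106, 109.8 and 79.6 CPM in clusters 5 to 7 and at 181 and 221 CPM in clusters 8 and 9. The first step, from cluster 4 to cluster 5, was 2.82-fold (2.23 to 3.59) and the later one, from cluster 7 to cluster 8, was 2.27-fold (1.99 to 2.60). Between them cluster 7 was 1.38-fold lower than cluster 6 (1.20 to 1.59), and in the bins Crem dipped from 146 CPM in bin 13 to 73.6 CPM in bin 18 before its highest value of 227 CPM in bin 20. The gene lies at chr18:3266048-3337748 on the minus strand, and counts per gene do not separate the repressor and activator isoforms.

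Pou5f2, a POU-domain factor of male germ cells, was near its level in somatic-like cells in every germ cluster but the last. It is a short gene at chr13:78024902-78026295 on the plus strand. Clusters 1 to 8 lay between 2.52 and 4.87 CPM, with somatic-like cells at 3.62 CPM. Cluster 9 stood at 65.0 CPM (57.1 to 73.6), 24.3-fold higher than cluster 8 (13.0 to 51.3). Of the 160 cells of cluster 9, 35 held a Pou5f2 UMI, and 10 cells held 80.5% of its 246 UMIs, with up to 39 in a cell. After thinning, 5 cells of cluster 9 held a UMI, or 3.21% (1.05% to 7.32%), against 0.733% of somatic-like cells (0.428% to 1.17%), and these intervals overlap. Over clusters 8 and 9 together, 1.34% of pachytene-like cells held a UMI (0.493% to 2.89%). For that whole class the difference from somatic-like cells was not detectable at that depth (9.96% and 2.08% without thinning).

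Taken step by step, members passed 2-fold at different steps, and some did so repeatedly. Between clusters 1 and 2, Ovol1 was higher on 25 UMIs and Mybl1 lower. Each was 1 of 10 members, near the 10.2% and 11.2% of all genes. No member passed 2-fold between clusters 2 and 3, against 3.16% of all genes higher and 14.3% lower, or between clusters 3 and 4 (2.84% and 6.97%). From cluster 4 to cluster 5, the first early-prophase-like one, Mybl1, Crem and Taf4b were higher, 3 of 8 members with enough UMIs, and 0 were lower (11.7% and 16.7%). At the next step Sox30 and Rfx2 were higher, 2 of 9, and 0 were lower (12.8% and 9.8%). From cluster 6 to cluster 7, Tcfl5, Brdt and Rfx2 were higher, 3 of 9, and Taf4b lower, 1 of 9 (13.5% and 17.1%). From cluster 7 to cluster 8, Crem and Ovol1 were higher and Taf4b and Taf7l lower, 2 of 10 each way (9.83% and 13.7%).

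Counted over classes, 5 of the 10 members were at least 2-fold higher in early-prophase-like than in spermatogonium-like cells, against 13.9% of 15969 genes that reached 20 UMIs in the classes compared. None was at least 2-fold lower, against 28.9% of all genes. The ratios were 10.0 for Mybl1 (8.52 to 11.9), 6.93 for Brdt (6.41 to 7.50), 4.91 for Sox30 (4.18 to 5.78), 3.31 for Rfx2 (2.73 to 4.02) and 2.79 for Crem (2.50 to 3.12). The count was also 5 with the haemoglobin-led cluster 4 left out, a setting chosen after the data were seen. The median log2 ratio of the members was 1.15, against -0.24 over all genes.

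At the next step, into pachytene-like cells, 6 members were at least 2-fold higher, against 18.2% of 14800 genes, and 2 were at least 2-fold lower, against 28.9%. The higher ratios were 8.54 for Pou5f2 (6.26 to 11.9), 4.50 for Ovol1 (2.69 to 7.80), 3.55 for Tcfl5 (3.36 to 3.76), 2.92 for Rfx2 (2.60 to 3.28), 2.05 for Crem (1.90 to 2.21) and 2.03 for Sox30 (1.86 to 2.22). The intervals of Crem and Sox30 include 2. The log2 ratio of Pou5f2 was 3.09, and fell to 1.78 with equal weight for each cell and to 1.19 with each cell thinned to 2000 UMIs. That of Ovol1 was 2.17, and 3.34 after thinning. Taf4b and Taf7l were the lower members. Set against cluster 7 only, 3 members were at least 2-fold higher, namely Ovol1, Crem and Pou5f2, since Tcfl5, Rfx2 and Sox30 were already high there. With cluster 8 as the only pachytene-like cluster, Pou5f2 had a log2 ratio of -0.57 in place of 3.09. The members' median log2 ratio was 1.03, against -0.34 over all genes.

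Between clusters 8 and 9, 2 members were at least 2-fold higher, against 16% of 11690 genes, and none was at least 2-fold lower, against 9.97%. These were Pou5f2 and Taf7l, the latter at 3.69-fold (3.13 to 4.37). The others lay between a ratio of 0.545 for Brdt and 1.25 for Ovol1. With 2000 variable genes in place of 3000, where the clusters held other cells, Taf7l had a log2 ratio of -0.27 in place of 1.88 and Crem 1.17 in place of 0.28, so the members called were then Pou5f2 and Crem.

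**Figure D3:**
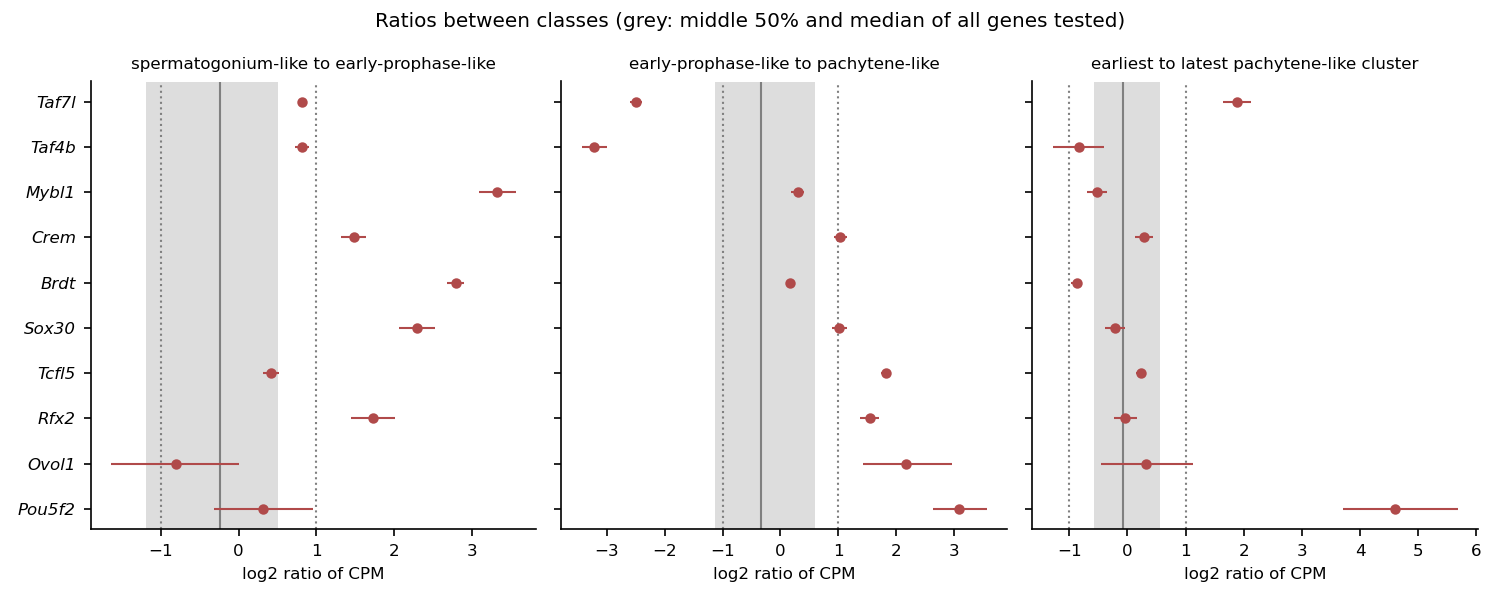
Log2 ratio of CPM for each member (points, with 95% intervals) between classes, with the middle 50% and the median of all genes with at least 20 UMIs in grey. Dotted lines mark 2-fold. Mybl1 has the highest ratio at the first step, Taf4b the lowest at the second, and Pou5f2 the highest at the third.

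The higher Taf7l level of cluster 9 was carried by its earliest cells. Cluster 9 was cut by pseudotime into 4 sets of 40 cells, a cut chosen after its values were seen. Taf7l stood at 665, 205, 64.2 and 39.4 CPM in these sets, from earliest to latest. The X-linked share of UMIs fell with it, at 2.21%, 0.933%, 0.475% and 0.467%, so the first set was above cluster 8 (0.504%) although pseudotime placed it later. Taf4b was not higher in that set, at 18.9, 24.3, 19.4 and 13.6 CPM. The X-linked share of single cells in the first set ran from 0.232% to 4.47%. The Y-linked factor gene Zfy2 was at 230.2, 91.5, 33.9 and 27.8 CPM. Of the pachytene markers, Piwil1 was at 290, 640, 868 and 689 CPM and Ldhc at 4167, 4097, 4013 and 6347 CPM. Median doublet scores were 0.0781, 0.0742, 0.0663 and 0.0707 in the sets, against 0.0382 in cluster 8, and median depth ran from 14893 UMIs in the first set to 34798 in the last. Split at its median depth instead, cluster 9 had Taf7l at 363 CPM in the 80 shallower cells and 111 CPM in the 80 deeper cells. The part of depth and doublets in this pattern was not tested, nor was the place of the earliest cells in the order. The courses within cluster 9 and the Taf7l ratio between clusters 8 and 9 rest on that order.

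Pou5f2 lay at the other end of cluster 9. It stood at 1.72, 6.62, 10.9 and 156 CPM over the sets, on 1, 6, 9 and 230 UMIs. By depth, it stood at 6.70 CPM (7 UMIs) in the 80 shallower cells and 87.2 CPM (239 UMIs) in the 80 deeper cells. The part of depth in this was not tested. In the last set Ccna1, the meiotic cyclin A1 and a late-spermatocyte marker, was at 67.9 CPM, against 5.15, 8.82 and 8.48 CPM in the first 3 sets. Sycp1 of the synaptonemal complex went the other way, at 2930, 2574, 2454 and 1029 CPM. Mybl1 was at 235, 130, 133 and 87.6 CPM and Tcfl5 at 478, 502, 535 and 680 CPM, so their courses were opposite within the cluster. By depth, Mybl1 was at 161 CPM in the shallower and 119 CPM in the deeper cells, and Tcfl5 at 444 and 624 CPM. The part of depth in these courses was not tested. Brdt varied little, between 313 and 339 CPM.

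**Figure D4:**
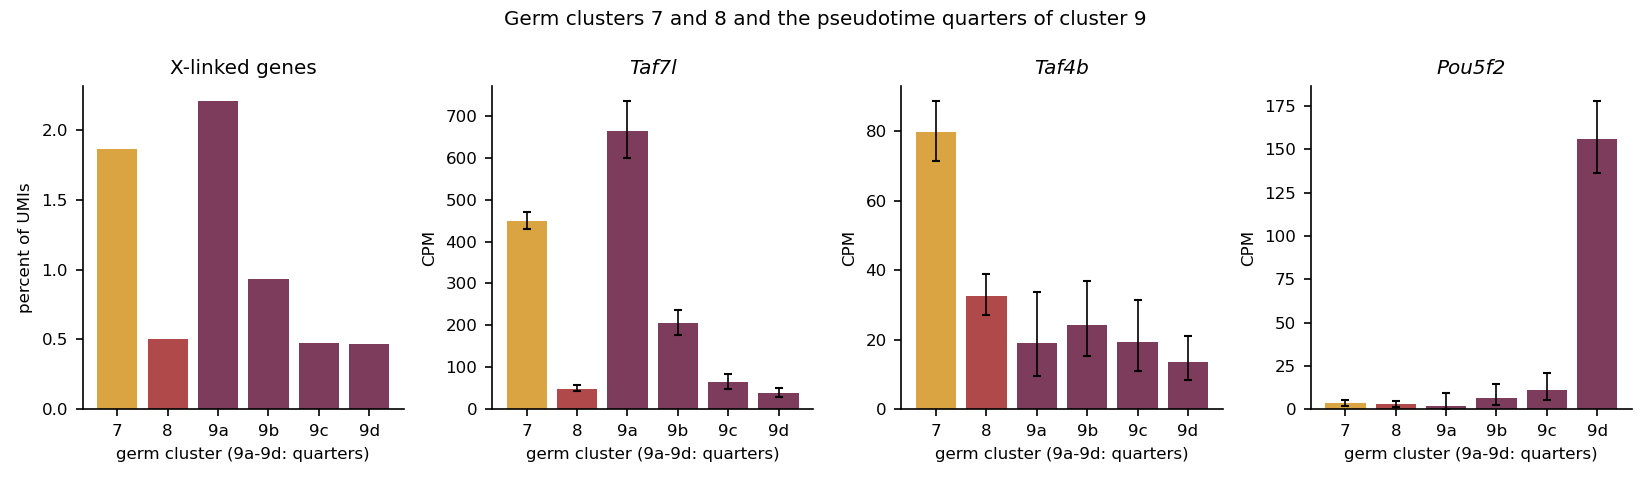
X-linked share of UMIs (percent) and CPM of Taf7l, Taf4b and Pou5f2 with exact Poisson 95% intervals, in germ clusters 7 and 8 and the 4 pseudotime sets of cluster 9 (9a earliest). Taf7l is at 665 CPM in 9a and 39.4 CPM in 9d, and Pou5f2 is at 156 CPM in 9d.

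More widely expressed relatives of several members followed other courses. Comparisons here are of each gene's course and not of levels between genes, since 3' counts do not give levels per length. Of 23 relatives with enough UMIs, 6 rose by 2-fold or more into pachytene-like cells and 4 fell by as much, against 18.2% and 28.9% of all genes, with a median log2 ratio of -0.14 against -0.34. Taf7 went down over clusters 1 to 7, from 261 to 90.3 CPM, and stood at 136 CPM in cluster 8, where Taf7l was lowest. Taf4 stood between 16.2 and 65.7 CPM, with its highest level in cluster 7, where Taf4b had fallen. Brd2 varied between 164 and 282 CPM. Mybl2, the B-MYB gene, was at 33.0 CPM in cluster 1 and 5.80 CPM in cluster 6, where Mybl1 was high, and Myb was at 0 UMIs from cluster 3 on.

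Relatives in the RFX, OVOL and SOX families differed in course. Rfx4 went from 7.92 CPM in cluster 7 to 69 and 65.8 CPM in clusters 8 and 9, and Rfx8 from 5.82 to 22.5 and 52.6 CPM, whereas Rfx3 was highest in cluster 6 at 238 CPM and stood at 54.3 CPM in cluster 8. Ovol2 was at 1.34 CPM in cluster 8 and 35.7 CPM in cluster 9. Sox3, an X-linked gene of spermatogonia, was 4.85-fold lower in the pachytene-like class than in the class before. Sox6 had the course most like that of Sox30 among 10721 genes, with a Pearson r of 0.97 over the 20 bins.

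**Figure D5:**
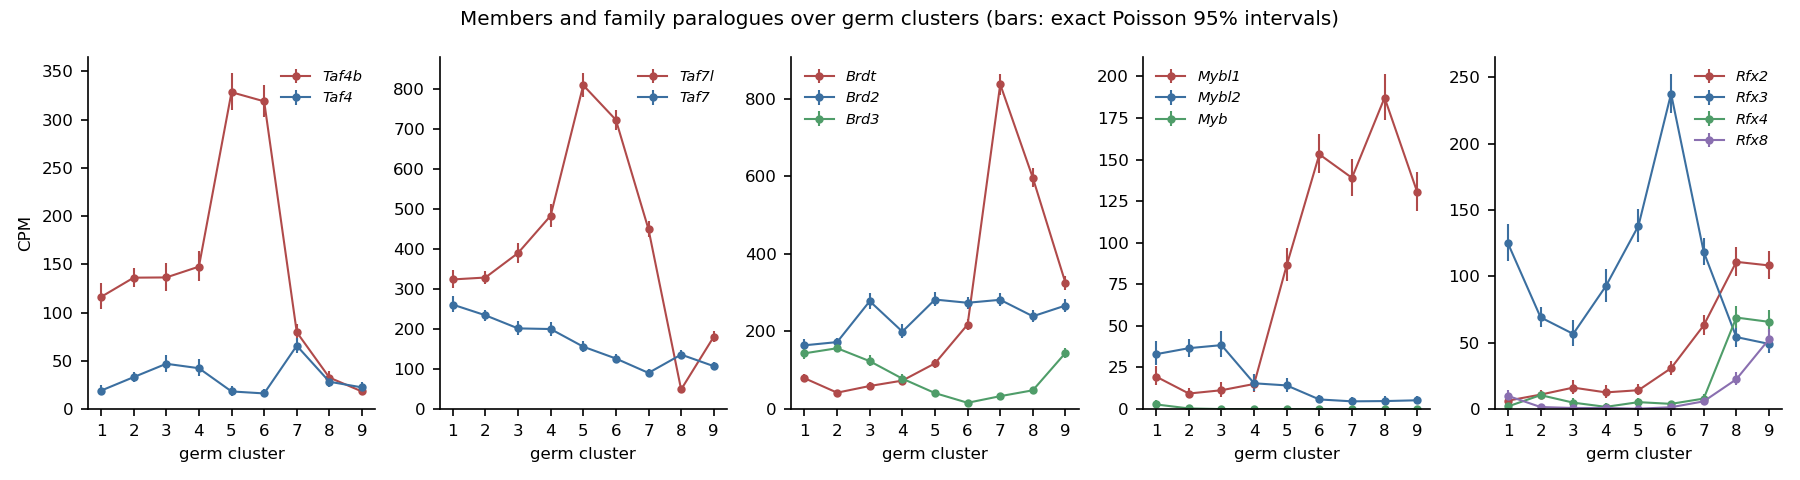
CPM of members (red) and of their relatives over germ clusters 1 to 9, with exact Poisson 95% intervals. The course of each line is to be compared, not the levels of different genes. Taf7 and Taf4 do not follow Taf7l and Taf4b, and Rfx4 and Rfx8 are higher in clusters 8 and 9, as Rfx2 is.

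The genes most alike in course, by r of log2(CPM + 1) over the 20 bins, differed between members. For Mybl1 they were Meiob (0.97), a single-strand DNA binding protein of meiotic recombination, Tesmin (0.97) and Zfp654 (0.96). Those of Tcfl5 were Fyttd1, Psip1 and Pcbp1, and those of Brdt were Glt8d1, Nek4 and 4930524B15Rik. The nearest to Taf7l were all X-linked, namely Kdm6a, Tex16 and Hprt (0.97 each). The nearest to Taf4b were Zdhhc9, also X-linked, and the autosomal Unc13b and Iws1 (0.98 each). Crem was near to Saysd1 and Letm2, and Rfx2 to Pkig, 1700102P08Rik and Fam216a (0.92 each). Sox30 was followed, after Sox6, by Galk2 and Cep83os. Pou5f2 had lower values, 0.87 for Tcp10a, 0.86 for Ccdc38 and 0.84 for 4930544G11Rik, and Ovol1 reached 0.73 with Uqcrc1, then Ccdc89 and Taf1c.

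General transcription factors other than the members were compared at the same step. Of 20 genes, 3 rose by 2-fold or more into pachytene-like cells and 6 fell by as much, near the 18.2% and 28.9% of all genes, with a median log2 ratio of -0.07 against -0.34. Gtf2a1l (ALF), the germ-cell version of a TFIIA subunit, went from 3.24 to 64.3 CPM, 19.9-fold higher (14.3 to 28.3). Tbpl1 (TRF2), the TBP-like factor that works with it, went from 100.04 to 344 CPM. Gtf2a2, the small TFIIA subunit, stood at 567 and 568 CPM.

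Among 25 other regulators of male meiosis, 6 rose by 2-fold or more at the same step and 11 fell by as much, against 18.2% and 28.9% of all genes, with a median log2 ratio of -0.81 against -0.34. Prdm9, which marks recombination hotspots, was 30.6-fold lower, from 93.6 to 3.06 CPM. Morc2b went from 8.63 to 183 CPM, Dmrtb1 from 9.95 to 75.9 CPM and Phf7 from 241 to 1066 CPM. Dmrtb1 thus returned after a first high level of 69.2 CPM in cluster 3.

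Genes of programmes in which the members are known to act were then examined. Piwil1, Ldhc and Tbpl1 were among the markers that named the pachytene-like clusters, Prdm9 and Meiob among those of early prophase and Dmrtb1 among those of spermatogonia, so their differences between classes are descriptions only. Of 14 piRNA pathway genes, the class A-MYB is known to activate, 10 were at least 2-fold higher and 0 lower, against 18.2% and 28.9% of all genes, with a median log2 ratio of 1.78 against -0.34. Piwil1, a PIWI protein of pachytene, went from 21.5 to 507 CPM, and stood at 32.1 CPM in cluster 7 and 357 CPM in cluster 8. Mybl1 had been at 86.5 CPM or more since cluster 5, and its own ratio at the step into pachytene-like cells was 1.23 (1.14 to 1.33). Whether A-MYB had a part in the levels of Piwil1 or the other piRNA pathway genes was not tested. Tdrd6 went from 2.07 to 57.9 CPM and Ddx4 from 347 to 731 CPM.

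Of 20 genes of the cilium and axoneme, the class RFX2 is known to act on, 18 were at least 2-fold higher and 0 lower, against the same shares of all genes, with a median log2 ratio of 3.71. Dynlrb2, a dynein light chain, went from 2.32 to 78.8 CPM and Ttc29 from 0.747 to 22.7 CPM. Rsph1, a radial spoke protein, was already at 1585 CPM in cluster 7 and stood at 3639 and 4686 CPM in clusters 8 and 9. Of 14 spermatid genes of the kind CREM activates, 9 had enough UMIs, with 6 at least 2-fold higher and 1 lower, against the same shares, and a median log2 ratio of 3.60. Ldhc, the sperm lactate dehydrogenase, stood at 804 CPM in cluster 8 and 4965 CPM in cluster 9, and Pgk2 at 4.01 and 50.4 CPM, while Camk4 was highest in cluster 2 at 143 CPM and was at 0.802 CPM in cluster 8. Prm1, Prm2, Tnp1 and Tnp2, which pack sperm DNA, each had too few UMIs for a ratio.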

How the data were processed

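Single cells of mouse testis were sequenced with a 3' kit, and the deposited counts are whole UMI counts per gene and barcode, not normalised. The authors used Cell Ranger 7.1.0, per the file headers, and STAR and mm10 appear in the submitters' processing notes. The cell calling step is not recorded in these sources. Matrices of the remaining 3 libraries were not used here.

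Barcodes with 500 or more genes, 1000 or more UMIs and no more than 10% mitochondrial UMIs were kept (8121), and 256 doublets called by Scrublet (3.15%) were removed. Free RNA was not subtracted. In scanpy 1.11.5, 3000 variable genes, 30 principal components, 15 neighbours and Leiden clustering at resolution 1 (leidenalg 0.10.2) gave 22 clusters. The 10 members, all list genes, X-linked, Y-linked and mitochondrial genes (1945 in all) were left out. A cluster took the name of the highest mean marker score (at least 1, a lead of at least 0.25 except between consecutive germ stages, at least 3 markers at 2-fold). Scores were set against the median over clusters. Clusters whose median UMI count was under that of all cells divided by 3, with no marker of their own among their 10 leading genes, took no name. The way of scoring was chosen with the clusters in view, and classes are rebuilt, not the authors'. Germ-like cells were ordered by diffusion pseudotime from the undifferentiated spermatogonium-like cluster.

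Counts were summed per class. Ratios needed at least 20 UMIs over both classes, and a count of 0 was set to 3 counts. Shares of cells with a UMI were taken after thinning to 2000 UMIs, which left 6632 cells. With 1 library per group no test exists. The scripts were tested on simulated data. Of 32285 gene identifiers, 32158 matched a GENCODE annotation of the same build. Promoters are from RefSeq (GRCm38.p6), with 250 bases each.

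Members and lists were chosen with earlier results of these data known. Named by rule were the members, in each list, for the step into pachytene-like cells, the 2 genes of largest rise and the 1 of largest fall past 2-fold and the gene of highest level, and per member the 3 genes nearest in course. Not every gene so taken is reported here. Taf4, Taf7, Mybl2, Myb, Myc, Rfx3, Rfx4, Prm1, Prm2, Tnp1, Tnp2, Zfy2, Ccna1 and Sycp1 were named after their values were seen.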

Additional observations from a re-analysis of the deposited data

How the results depend on the processing

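No paired analysis was possible because each group has 1 library. Of 52 counts of members under other settings, 50 were within 1.5 times the value given above. Against the last early-prophase-like cluster only, 3 members were at least 2-fold higher in pachytene-like cells in place of 6, since levels had risen within the early-prophase-like class. With each cell thinned to 2000 UMIs, 1 member, Taf7l, was called at least 2-fold higher in cluster 9 than in cluster 8 in place of 2. The log2 ratio of Pou5f2 was still 3.90, but its UMIs, found in 1 and 5 thinned cells, were under the minimum of 20. Of the 10 first positions at 50% of the highest bin, 6 stayed within 5 percentage points when cells were ordered by the first principal component. At 25% of the highest bin in place of 50%, 5 did, since a lower height is passed earlier. Of 260 log2 ratios under other settings, 189 stayed within their main interval, 69 moved and 2 reversed. Pou5f2 at the step into pachytene-like cells was -0.57 with the earliest pachytene-like cluster only, since its RNA was in the latest cluster. Taf7l from the earliest to the latest pachytene-like cluster was -0.27 with 2000 variable genes, where pachytene-like clusters held 732 cells in place of 452, and Crem was 1.17 in place of 0.28; the cause was not tested. With at most 20% mitochondrial UMIs, 1 pachytene-like cluster was found, so the step between clusters 8 and 9 gave no value. Depth limits Ovol1 and Pou5f2 outside cluster 9, and no setting replaces a second library.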
